A study of Mus musculus with 6 samples.

Results

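An ATAC-seq experiment compared open chromatin in urothelial cells, the lining cells of the bladder, from mice with intact Stag2 (WT) and mice in which Stag2 had been deleted (KO). There were 3 WT and 3 KO libraries. All mice, WT and KO, had been fed a diet containing TMX to induce deletion, and tissue was taken 1 week after induction. GFP+, DAPI- cells of peeled urothelium were sorted, 50000 per condition, and all libraries carry batch 1. The labels call the libraries biological replicates but do not give the number of animals behind each, the driver of the deletion, or the age of the mice, so a p-value covers only library-to-library spread, which may be technical. The peak lists hold no transcript level, so the loss of Stag2 was not checked here. Described here is a stretch of chromosome 14 from 72 to 87 Mb in mm10, 15 Mb long. It holds 570 of the 138957 regions obtained by merging the strongest 100000 intervals of each library, and 381 of these members had an interval in at least 3 of the 6 libraries and could be compared. The stretch was chosen from measured values, on the KO against WT contrast of these same libraries and because of large differences in and near Lrch1 and Slc25a30. All KO against WT values inside it are therefore a description and not a test.

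ATAC-seq uses the Tn5 transposase, which inserts adapters where DNA is not covered by nucleosomes, so peaks mark promoters, enhancers and sites bound by factors such as CTCF. STAG2 is one of the 2 alternative STAG subunits of cohesin in somatic cells. Cohesin ties replicated chromatids to each other and also reels DNA into loops that stop at CTCF sites, which brings distant enhancers and promoters into contact. The stretch is a gene-poor region with a cluster of genes in its first part, among them Rb1, whose product restrains E2F factors and cell-cycle entry, the actin-bundling gene Lcp1, and several genes for mitochondrial proteins. Diaph3, a formin gene, crosses its upper edge.

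The 250 bases upstream of a listed start site are shown for 4 genes, because a member covers all or part of each. They come from RefSeq (GRCm38.p6, the coordinates of mm10). The start used for Lrch1, Naa16 and Mtrf1 lies inside the gene span, so part of each of these windows does too. Lrch1 and Slc25a30 are the genes beside the differences that singled out the stretch. Naa16 and Mtrf1 had the highest and lowest differences among the members at listed genes, although their start sites are close neighbours. The windows are chr14:74947878-74948127 (minus strand) for Lrch1, chr14:75787038-75787287 (minus strand) for Slc25a30, chr14:79390669-79390918 (minus strand) for Naa16 and chr14:79397522-79397771 (plus strand) for Mtrf1. Capitals mark matches to the motifs named after the sequences.
Lrch1: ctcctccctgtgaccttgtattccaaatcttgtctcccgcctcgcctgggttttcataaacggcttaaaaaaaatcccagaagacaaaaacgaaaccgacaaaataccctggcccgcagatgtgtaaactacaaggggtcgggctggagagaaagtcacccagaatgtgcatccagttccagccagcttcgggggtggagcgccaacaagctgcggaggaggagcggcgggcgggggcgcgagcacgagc
Slc25a30: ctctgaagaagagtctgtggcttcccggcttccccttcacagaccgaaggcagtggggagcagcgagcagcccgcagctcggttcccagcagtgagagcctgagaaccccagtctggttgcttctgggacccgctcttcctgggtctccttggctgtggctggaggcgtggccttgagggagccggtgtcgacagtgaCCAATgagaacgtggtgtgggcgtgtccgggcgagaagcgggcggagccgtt
Naa16: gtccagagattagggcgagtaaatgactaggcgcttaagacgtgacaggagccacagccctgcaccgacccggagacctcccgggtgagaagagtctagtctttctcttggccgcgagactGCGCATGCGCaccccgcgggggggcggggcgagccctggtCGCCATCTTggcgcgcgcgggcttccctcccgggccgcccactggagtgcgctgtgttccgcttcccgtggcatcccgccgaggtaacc
Mtrf1: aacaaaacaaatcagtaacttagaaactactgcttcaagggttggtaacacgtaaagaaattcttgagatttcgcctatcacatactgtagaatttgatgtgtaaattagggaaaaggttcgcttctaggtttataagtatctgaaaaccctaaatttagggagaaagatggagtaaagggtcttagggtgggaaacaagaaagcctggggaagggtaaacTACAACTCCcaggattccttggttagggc
Both strands were searched for AP-1 (TGANTCA), E2F (GCGGGAA) and the CHR element bound by the DREAM complex (TTTGAA), and none of these letters occur in the 4 windows. A CTCF core (AGGGGGCGC) was searched too, also without a match. After the letters had been read, motifs of NRF1 (GCATGCGC), YY1 (AAGATGGCG), ZNF143 (TACAANTCC) and NF-Y (CCAAT) were added. Naa16 held 2 overlapping NRF1 matches, 129 to 120 bases before the start used, and a YY1 match at 89 to 81. The YY1 match lies inside the gene span, which ends at chr14:79390788. Mtrf1 held a ZNF143 match at 29 to 21 bases before its start, and Slc25a30 an NF-Y match at 52 to 48. Lrch1 held no match to any of the 8 motifs. Among all 32817 windows of this length in the table, 2.25% held the NRF1 letters, 0.603% YY1, 1.42% ZNF143 and 33.8% NF-Y, against 6.75% for AP-1, 3.82% for E2F, 15.98% for CHR and 1.11% for CTCF. The 4 windows also differed in base composition, from 39.2% G and C in Mtrf1 to 67.6% in Naa16. A match is a description of the letters and not a bound site. The members away from start sites have no sequence in that table.

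Differences are given as ranks, because lists of unequal length and depth cannot be compared by peak height. Within each library, intervals were ranked by the peak caller's fold over local background, rank 1 being the strongest, and a region with no interval among the best 100000 took rank 100001. The rank difference of a member is the mean of −log2 rank in KO minus that in WT, so that 1 stands for a rank better by a factor of 2 in KO. Summit coverage, the number of reads piled up at the summit, was recovered from the deposited fold and p. It is not scaled for depth. Its median over all listed intervals of the stretch was 50, 69 and 55 in WT and 32, 65 and 46 in KO. The lists held 149153 to 260462 distinct intervals, and the smallest background coverage was 5.89 to 7.98 per library. The list of KO replicate 1 starts at a −log10 p of 3.00 and the others at 2.00 to 2.01, and the lowest coverage listed on chromosome 14 was 12 to 18. Intervals stood at the start or end of 11 to 14 of 15 urothelial marker genes per library, with none for Trp63 in any. Their median rank was 55347, 64932 and 53522 in WT and 43224, 46782 and 45644 in KO, which do not overlap. Krt18 had an interval among the best 100000 in the 3 KO libraries and in no WT library. Upk1b, Upk3a, Krt7 and Pparg also ranked higher in all KO libraries than in all WT libraries. Groups overlapped at Upk1a, Upk2, Upk3b, Krt8, Gata3, Elf3 and Cdh1. Upk1a ranked 31971, 50767 and 30849 in WT and 43224, 58649 and 31064 in KO. The part of these marker differences in the values below was not tested. An interval also stood at 3 of 8 leukocyte markers (none for Ptprc), 0 to 4 of 6 fibroblast markers (none for Pdgfra or Lum), 2 or 3 of 5 smooth muscle markers and 0 to 4 of 5 endothelial markers. In bulk samples, fewer cells of a type and less open chromatin per cell cannot be told apart. Over the rest of chromosome 14, KO replicate 3 differed less from each WT library (mean absolute difference 0.385 to 0.512 in −log2 rank) than from KO replicates 1 and 2 (0.567 and 0.603). Counts without KO replicate 3 are therefore given below. WT replicate 2 also differed more from WT replicate 1 (0.628) than from KO replicates 2 and 3 (0.5124 and 0.5115), but less from WT replicate 3 (0.474).

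The called member with the largest rank difference toward KO lay beside Slc25a30, which encodes a mitochondrial inner-membrane carrier. The member chr14:75798064-75798520 is intergenic, 11027 bp from the nearer end of the gene, which spans chr14:75757534-75787037. No WT library had it among its best 100000 intervals. In the KO libraries it ranked 4109, 2746 and 2187. The groups lie far apart, the KO libraries being within a factor of 2 of each other. Summit coverage was 27, 33 and 26 in WT, where weak intervals stood past rank 100000, against 379, 482 and 407 in KO. The rank difference was 5.10, a lower limit on its size because the WT ranks were set at the end of the list. By contrast, the member at the start site of Slc25a30 itself was among the strongest of the stretch in both genotypes, at ranks 867, 3366 and 1035 in WT and 1344, 7348 and 1314 in KO. These groups overlap, and the difference was −0.70 ± 0.90. One member inside the gene, chr14:75767851-75768307, ranked 10300, 4662 and 10545 in WT and 27160, 16338 and 13948 in KO, which is the opposite direction to that of the intergenic member.

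Lrch1 encodes a leucine-rich repeat and calponin homology protein, a family with a part in the actin cytoskeleton, and it spans chr14:74754673-74948007. Inside it, 73389 bp from an end, the member chr14:74828062-74828598 had no interval at any rank in the 3 WT lists. It ranked 11630, 13365 and 17443 in KO, with a coverage of 350, 361 and 242. The difference was 2.84, again with the WT ranks set at the end of the list. This member was one of 20 compared within the gene, of which 2 had all KO libraries above all WT libraries and 4 the reverse, where the shares over all regions were 11.4% and 8.17%. The next compared member, chr14:74832592-74833452, stood in WT at ranks 21345, 36244 and 17089 and in KO at 64558, 73365 and 45029, a difference of −1.34 ± 0.37 (adjusted p = 0.263, limma). Another, chr14:74864926-74865616, ranked 67793, 36226 and 30657 in WT and had no KO interval among the best 100000, with a KO coverage of 34, 25 and 25 against 54, 128 and 129 (adjusted p = 0.254, limma). Neither of these passed the threshold. The start site of Lrch1 ranked 52446, 66742 and 62418 in WT and 40331, 45865 and 67682 in KO, and there the groups overlap.

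Another member ranked higher in KO stood near the lower edge, at chr14:72392893-72393580, intergenic and 38080 bp from the nearest gene, Gm9195. It had no WT interval at any rank and KO ranks of 8383, 17202 and 13468, with a coverage of 344, 188 and 232. The difference was 3.00, with the WT ranks set at the end of the list. The lowest coverage listed in the WT libraries on chromosome 14 was 13 to 15. All 3 KO libraries stand clear of it, as they do inside Lrch1.

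The 2 members ranked lowest in KO relative to WT lay toward the upper edge of the stretch. The member chr14:86197516-86198256 is intergenic, 457101 bp from Diaph3, a formin that nucleates actin filaments. Its WT ranks were 259, 3074 and 1229, with a coverage of 321, 258 and 229, and no KO list held an interval there at any rank. The difference was −6.65, with the KO ranks set at the end of the list. On the same side of Diaph3, 117202 bp away, chr14:86537612-86538155 ranked 1442, 9111 and 6248 in WT and was absent from all KO lists. Its difference of −4.52, formed in the same way, did not pass the threshold (adjusted p = 0.0536, limma; 0.0455 with the replicate number as a block). The other call in this direction, chr14:76623600-76624080, lies 66526 bp from Serp2, a stress-associated protein of the endoplasmic reticulum. It ranked 20583, 20099 and 14721 in WT and was in no KO list of 100000, with a WT coverage of 169, 274 and 243. Weak KO intervals with a coverage of 20 and 26 were listed in replicates 2 and 3 and none in replicate 1. The difference was −2.45, with the KO ranks set at the end of the list.

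**Figure D1:**
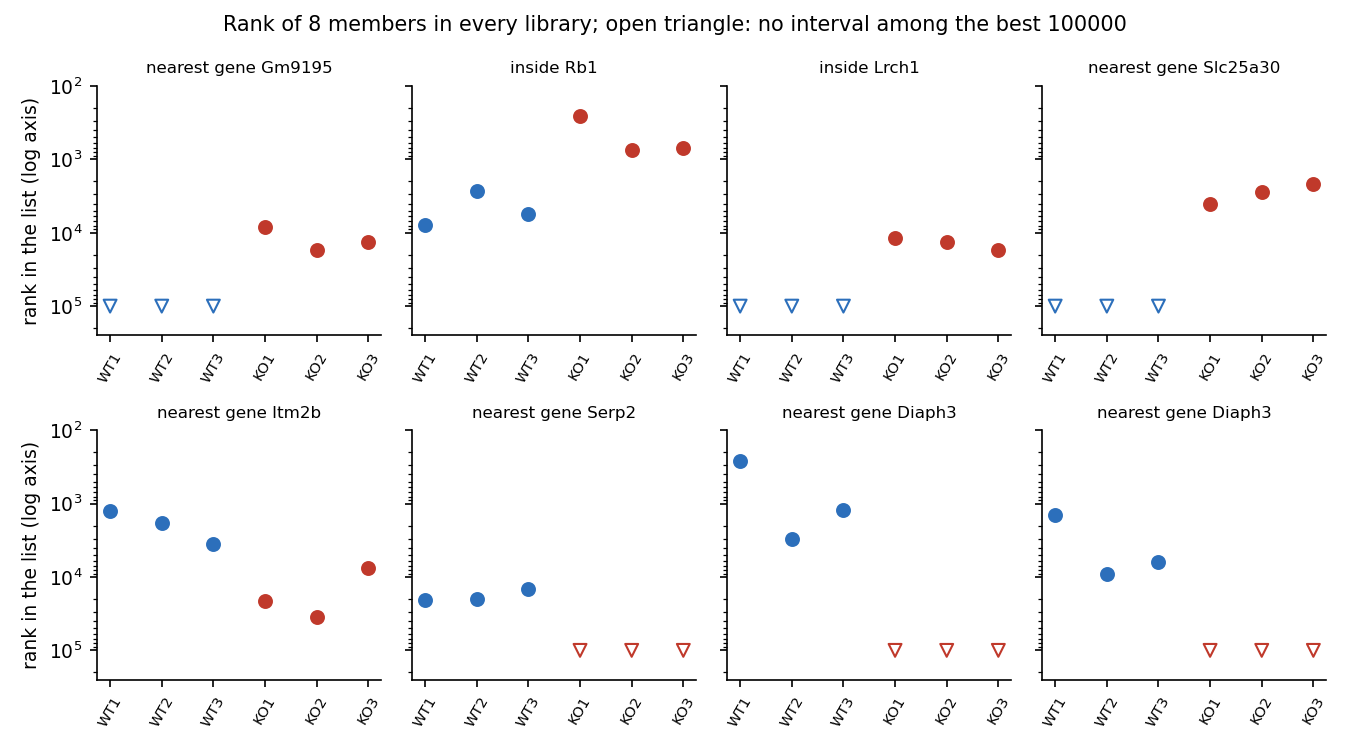
Rank by fold in each of the 6 libraries (log axis, strongest at the top) for the 5 members past the limma threshold and the members inside Rb1, nearest Itm2b and nearer to Diaph3 (last panel). Filled points are ranks (blue WT, red KO) and open triangles mark no interval among the best 100000, so that the groups of each panel do not overlap.

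In all, limma called 3 members higher and 2 lower in KO (adjusted p under 0.05), where the background over all 100565 regions was 12 higher (0.0119%) and 9 lower (0.00895%). The rest of chromosome 14 had 0 higher and 1 lower among 3619, and no reading is taken from these shares because the contrast chose the stretch. At an unadjusted p under 0.05 (limma), 45 of 381 members were higher and 51 lower. Over all 100565 regions these counts were 7006 and 7889, and among the 3619 on the rest of chromosome 14 they were 285 and 330. Each of the 5 had an interval in 3 libraries, all of 1 genotype, so it entered the comparison only through the genotype in which it was high. The other genotype stood at the constant rank 100001 and added no spread, so the adjusted p of 0.00258 to 0.0289 (limma) is a description and no test of these members. With lists of 50000 intervals the member beside Slc25a30 was the sole call, and comparing every region whatever its number of libraries left 0. With KO replicate 3 left out, 3 of 346 members were higher and 13 lower. The calls over the genome then went to 837 (0.886%) and 1579 (1.67%) of 94480 regions. Leaving out any other library left 0 or 1 higher and 0 lower, and a member of 1 genotype could not be compared once a library of that genotype was gone.

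Separation of the groups was counted next, since it needs no model of variance. All KO libraries ranked above all WT libraries at 63 members (16.5% of 381; background 11.4%), and all WT above all KO at 51 (13.4%; background 8.17%). On the rest of chromosome 14 the shares were 12.3% and 9.31%. Requiring a difference of at least 1 left 17 members higher in KO (4.46%; background 1.69%) and 26 lower (6.82%; background 2.03%). An interval in all 3 KO lists of 100000 and no WT list was held by 20 members (5.25%; background 1.38%), and the reverse by 15 (3.94%; background 1.23%). Counting only members with no interval at any rank in the other genotype, there were 6 KO members (1.58%; background 0.112%) and 4 WT members (1.05%; background 0.171%), against 0.166% and 0.276% on the rest of chromosome 14. Both directions were thus represented in every count. Without KO replicate 3, WT-above members numbered 104 of 346, beside a background of 22.1%, and KO-above members 93, beside 22.7%. Leaving out KO replicate 1 or 2 compared as many libraries but gave fewer such members. WT-above members were then 58 of 349 or 57 of 350, beside a background of 10.1% or 11.85%. KO-above members were 48 or 57, beside 13.06% or 14.92%.

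Besides those in Lrch1 and nearest Gm9195, the KO members absent from all WT lists lay inside genes. A pair stood 51 bp apart in Fndc3a, which encodes a fibronectin type III domain protein. The stronger, chr14:72627882-72628336, ranked 24492, 40861 and 29777, and the weaker, chr14:72627552-72627830, ranked 46430, 92896 and 64949. One in Sucla2, the gene of a succinyl-CoA synthetase subunit in the citric acid cycle, ranked 31673, 54521 and 85323. One in Tsc22d1, a leucine-zipper regulator of transcription, lay near the end of the lists at 78125, 96792 and 96490. The last of these had a coverage of 46, 31 and 31, so it was weak in every KO library. Of the WT members absent from all KO lists, chr14:79410672-79411093 in Mtrf1, a mitochondrial translation release factor, ranked 18844, 59063 and 30423. The intergenic chr14:73449136-73449531, nearest Med4, ranked 45130, 53306 and 51473 at a coverage of 339, 670 and 421, a high pile-up for its rank.

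Other members had large rank differences without passing the threshold. Inside Rb1, which spans chr14:73192858-73325951, the member chr14:73313291-73313781 was 12170 bp from a gene end. It ranked 7778, 2715 and 5622 in WT and 258, 739 and 702 in KO, with a coverage of 196, 636 and 315 against 614, 758 and 437. The groups do not overlap in rank. Coverage of WT replicate 2 exceeds that of KO replicates 1 and 3, but it is not scaled for depth and its median in the stretch was also higher in WT replicate 2. The difference was 3.26 ± 0.79 and did not pass the threshold (adjusted p = 0.255, limma). Of 13 members compared in the span of Rb1, 5 had KO above and 2 had WT above, where the shares over all regions were 11.4% and 8.17%. The region at one end of the gene, chr14:73325449-73327097, ranked 49508, 38492 and 54842 in WT and 12806, 16971 and 38327 in KO. Whether this end is the start of Rb1 was not read, since no start site was listed for it. In the gene body, chr14:73270672-73271283 ranked 73080, 32699 and 37860 in WT and was in no KO list of 100000. Neither of these 2 regions passed the threshold (adjusted p = 0.279 and 0.256, limma).

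Of the members ranked lower in KO, chr14:73410090-73410571, 24801 bp from Itm2b, a membrane protein gene, ranked 1266, 1816 and 3532 in WT and 21450, 34611 and 7545 in KO. Coverage there was 380, 487 and 378 against 142, 106 and 259 (adjusted p = 0.219, limma). The strongest peak of this set, chr14:76834055-76834479, stayed near the top of every list, at ranks 76, 73 and 30 in WT and 353, 181 and 171 in KO. Its difference of −2.01 ± 1.55 has a wide error (adjusted p = 0.530, limma). Its coverage, not scaled for depth, overlapped (446, 775 and 530 against 480, 469 and 502). The member chr14:72974451-72975031 was more uniform in coverage, with 116, 123 and 98 in WT and 239, 266 and 314 in KO. It lies 50641 bp from Cysltr2, a leukotriene receptor gene, and its difference was 2.43 ± 0.60 (adjusted p = 0.255, limma).

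**Figure D2:**
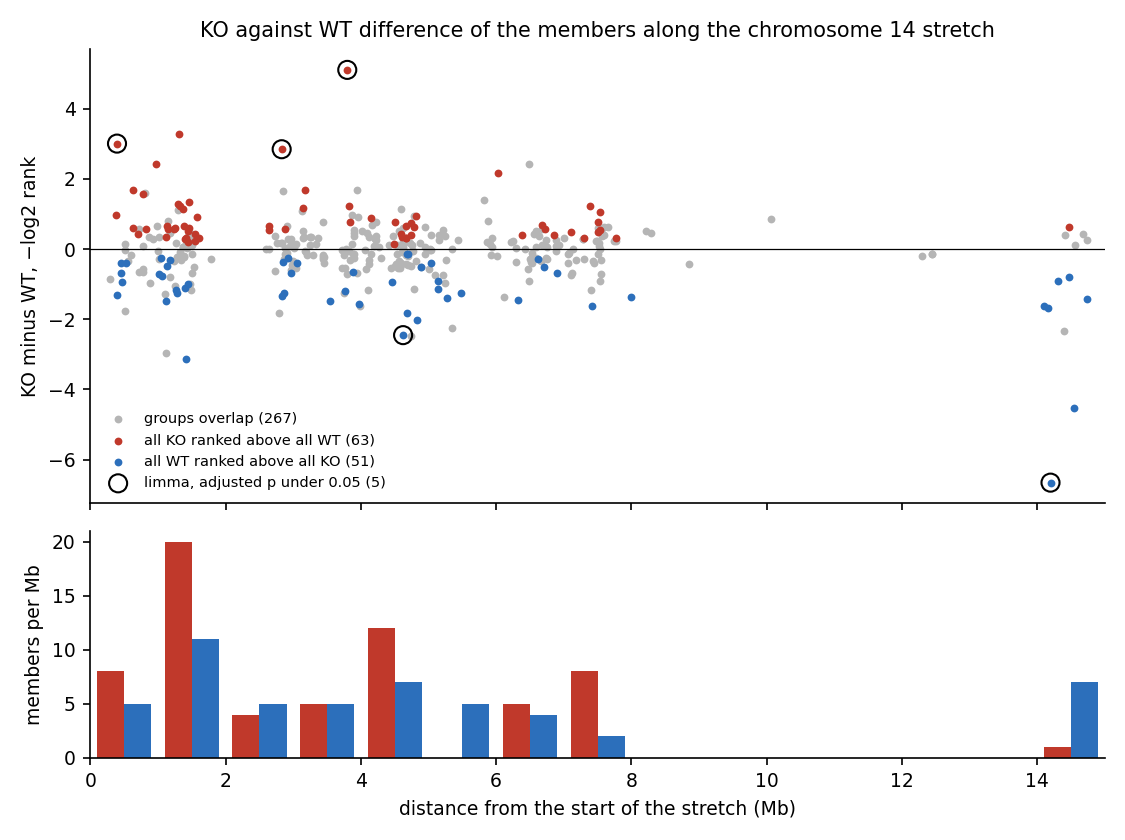
Upper panel, KO minus WT difference in −log2 rank for the 381 members compared, against the distance from the start of the stretch; red and blue points are members whose groups do not overlap and circles mark the 5 limma calls. Lower panel, the number of KO-above (red) and WT-above (blue) members per Mb, both present in 7 of the first 8 Mb, with WT-above alone at 5 to 6 Mb, and mostly WT-above in the last.

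Along the stretch, the members crowded into the first part. The segment from 72 to 77 Mb held 251 compared members, that from 77 to 82 Mb 113, and that from 82 to 87 Mb 17, and no member was compared at 81 to 82, 83 to 84 or 85 to 86 Mb. The largest gap between members was 1653658 bp, beside a median of 6580 bp. From 73 to 74 Mb, where Rb1, Itm2b, Med4 and Sucla2 lie, 20 of 64 members were KO-above and 11 WT-above (31.2% and 17.2%, where the shares over all regions were 11.4% and 8.17%). From 77 to 78 Mb, in and near Enox1, 0 of 28 were KO-above and 5 WT-above (17.9%). Between 86 and 87 Mb, on the side of Diaph3 away from its start and in its gene body, 7 of 13 were WT-above (53.8%) and 1 KO-above (7.69%), beside the same shares over all regions. The 7 included chr14:86159043-86159602, with WT ranks of 26796, 29562 and 38445 and no KO interval in the lists of 100000, and chr14:86740875-86741528 in Diaph3, with WT ranks of 38920, 26428 and 50364 and again none. The start of Diaph3 falls outside the stretch; the region there, chr14:87140374-87141625, had a difference of 1.17, with ranks of 3108, 4714 and 2813 in WT and 1130, 2715 and 1172 in KO.

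The direction of neighbours was mixed. Of 380 neighbouring pairs of compared members, 46.8% had the same sign, beside 49.6% on the rest of the chromosome. For consecutive members with separated groups the same direction recurred in 68 of 113 pairs (60.2%), beside 57.0% on the rest, and their median gap was 29756 bp, beside 44584 bp. The longest run was 9 KO-above members, between chr14:73452734 and chr14:74828598, beside a longer run of 14 KO-above regions on the rest. When a difference of at least 1 was also required, 26 of 42 consecutive pairs (61.9%; rest 46.0%) had the same direction. The longest run was then 7 WT-above members between chr14:75967291 and chr14:77485553, beside 6 WT-above regions on the rest. These shares are descriptions, because neighbours are not independent.

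At the boundaries, which the rule set at whole megabases, the compared members just inside were chr14:72293431-72294020 (difference −0.84) and chr14:72371820-72372274 (0.97) below, and chr14:86730621-86731003 (0.27) and chr14:86740875-86741528 (−1.42) above. Just outside stood chr14:71795651-71796062 (−0.04) and chr14:71796582-71796957 (0.88), and on the other side the start of Diaph3 and chr14:87215165-87215457 (−0.03).

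Set against the rest of chromosome 14, the stretch taken as a whole had differences of larger size and no common direction. The median difference was 0.02 in the stretch and 0.00 on the rest, and 51.7% and 49.99% of members were positive. The SD of the difference was 0.943, beside 0.641 on the rest and 0.607 over all regions. A difference of at least 1 either way was found at 67 members (17.6%), beside 9.26% on the rest. In the other 15 Mb windows of the chromosome the SD ran from 0.579 to 0.772 and this share from 7.28% to 15.5%. Within the stretch both were uneven. The SD was 0.9055 at 72 to 77 Mb, 0.687 at 77 to 82 Mb and 1.97 among the 17 members at 82 to 87 Mb. The shares were 18.7%, 12.4% and 35.3%, so the middle segment lay inside the range of the other windows. With edges at 73 and 86 Mb the SD was 0.813, beside 0.662 on the rest. A segment of chromosome 5 from 16 to 32 Mb, for comparison, had an SD of 0.832 and a share of 13.8% among 674 regions. Since the contrast chose the stretch, its place at the top of these values is no finding.

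**Figure D3:**
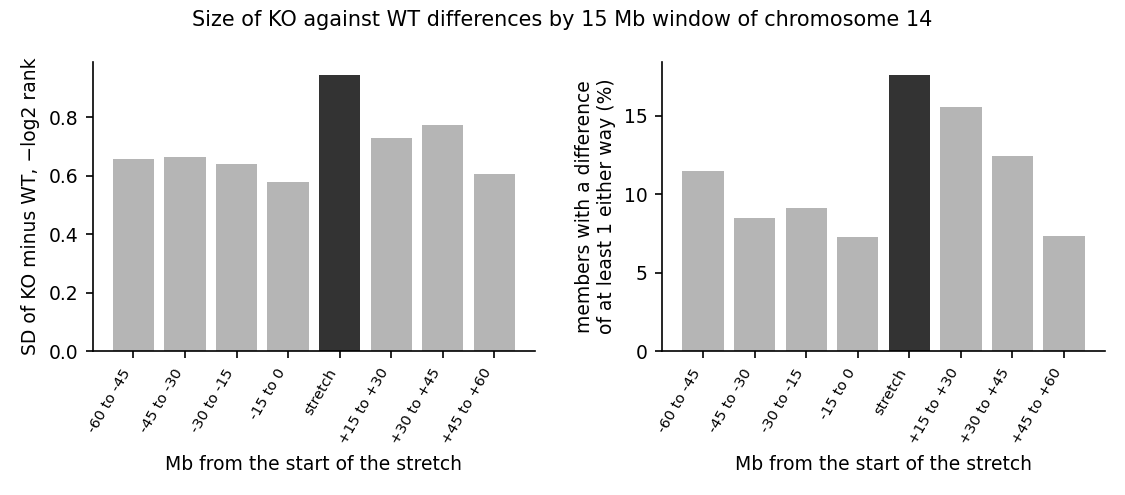
SD of the KO minus WT difference in −log2 rank (left) and percentage of members with a difference of at least 1 in either direction (right) in 15 Mb windows of chromosome 14, by distance from the start of the stretch. The dark bar is the stretch, at 0.943 and 17.6%; the other windows run from 0.579 to 0.772 and from 7.28% to 15.5%.

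The libraries were also compared pair by pair. The mean absolute difference in −log2 rank between 2 WT libraries was 0.513 in the stretch and 0.497 on the rest of the chromosome, and between 2 KO libraries 0.564 and 0.543. Between a WT and a KO library it was 0.762 and 0.615. So libraries of one genotype differed about as much here as elsewhere, and libraries of different genotype differed more, a contrast which the choice of the stretch had used. The pair of WT replicate 3 and KO replicate 3, the closest across genotypes on the rest of the chromosome at 0.385, was at 0.546 in the stretch. All 9 pairs across genotypes were farther apart in the stretch.

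**Figure D4:**
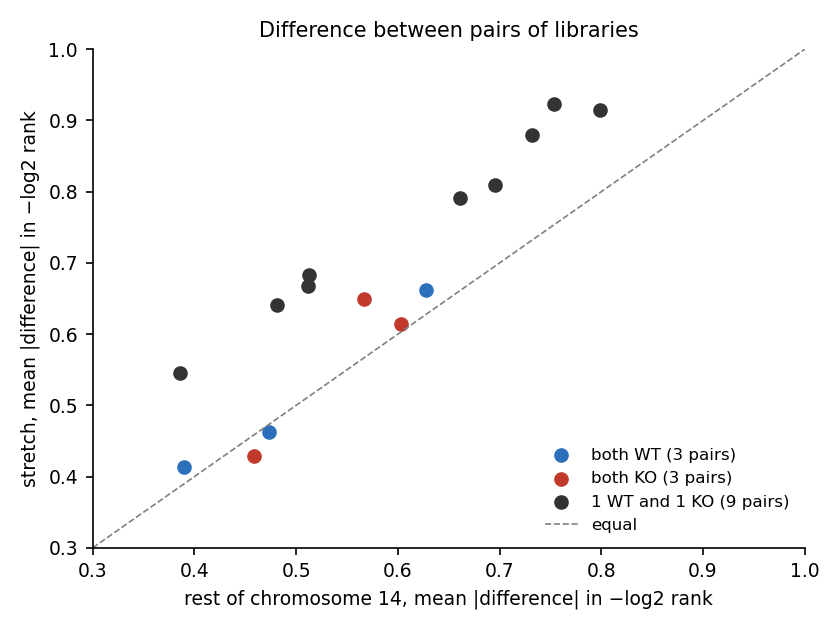
Mean absolute difference in −log2 rank between 2 libraries, over the 381 members of the stretch (vertical) and over 3619 regions on the rest of chromosome 14 (horizontal). The 9 pairs of a WT with a KO library lie above the dashed line of equality, while pairs within WT (blue) or KO (red) lie close to it.

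Measures that do not use the genotype contrast were tested over the 6 libraries, each library giving a value in the stretch and on the rest of the chromosome. Intervals were sparser in the stretch, at 25.6 ± 1.06 per Mb (SD, n = 6) against 33.7 ± 0.206, lower in 6 of 6 libraries. The exact sign-flip test (two-sided) gave p = 0.03125, the smallest it can give with 6 libraries, and 0.125 after adjustment over the 4 measures, so the difference did not pass. Median interval width was 359.9 bp against 357.0 bp (exact test, adjusted p = 0.688). The share of intervals with several summits was 21.2% against 21.4% (exact test, adjusted p = 0.792), and the median fold was 9.44 against 9.30 (exact test, adjusted p = 0.969). Local background coverage in the stretch was 0.941 to 1.01 times that on the rest of the chromosome in each library.

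Position relative to genes set members apart. Of the 381 compared, 38 lay at a listed start site, 6 at a gene end without one, 160 in a gene body and 177 between genes. Several genes, Rb1 and Fndc3a among them, have no listed start site, so a gene end here can be the start of a gene. The 38 at start sites had a median difference of 0.27 and an SD of 0.523, close to the 0.24 and 0.548 of 322 start sites on the rest of the chromosome. Of these 38, 7 were KO-above and 0 WT-above, and on the rest 61 and 5. Intergenic members had a median of −0.05 and an SD of 1.12, beside −0.05 and 0.660 on the rest, and gene-body members an SD of 0.766 beside 0.637. The wider spread of the stretch thus lay at members away from listed start sites, in values of the contrast that chose the stretch. All 51 WT-above members lay in gene bodies (22) or between genes (29), where most compared members lay. On the rest, 169 and 159 of 337 WT-above regions lay there, with 5 at start sites and 4 at gene ends.

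Start sites were then read by the role of the gene, from a list of 40 genes of which 38 lie in the stretch and 32 had a member at a start site or, where no start site was given, at a gene end. None of the 32 was called by limma, 22 had a positive difference and 10 a negative one, 9 were KO-above and 0 WT-above, and the median was 0.27. Start sites on the rest of the chromosome leaned the same way, with 223 of 322 positive, and the shares of KO-above and WT-above over all regions were 11.4% and 8.17%. In the cell cycle group, Tsc22d1 ranked 25489, 33648 and 33928 in WT and 11591, 19880 and 25050 in KO. Together with the member at an end of Rb1 it made 2 KO-above members among 4. No start site was listed for Rb1, so whether that end is its start was not read. Rgcc, a regulator of cell-cycle kinases, had overlapping groups (1417, 3221 and 2933 against 1116, 6014 and 3575). Of 5 mitochondrial genes, the start site of Sucla2 ranked 11802, 12168 and 10416 in WT and 8566, 9729 and 7590 in KO, a small but complete separation (difference 0.41 ± 0.41). That of Mtrf1 went the other way, at 12427, 11146 and 18292 against 17626, 34189 and 48210 (−1.17 ± 0.44). KO replicate 1 lay within the WT range there, so the groups overlap.

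Among 7 genes of transcription, chromatin and RNA or protein modification, Naa16, an auxiliary subunit of an N-terminal acetyltransferase, had the highest difference of the 32. It ranked 21709, 27217 and 30047 in WT and 6547, 15745 and 13138 in KO, a difference of 1.24 ± 0.43. Its neighbour Mtrf1, described above, had the lowest. Nufip1, a factor in the assembly of small nucleolar ribonucleoproteins, ranked 2773, 13977 and 3555 in WT and 10839, 21946 and 6540 in KO with overlapping groups (−1.17 ± 0.69). The other 5 of the group, Med4 (a Mediator subunit), Gtf2f2 (a TFIIF subunit), Elf1 (an ETS factor), Zc3h13 (of the m6A writer) and Wbp4 (a splicing factor), had differences of −0.18 to 0.51 and overlapping groups. The 4 signalling genes with a member, Lpar6, Htr2a, Dgkh and Akap11, ranged from −0.33 to 0.26, with 0 separated.

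Of 7 genes of the cytoskeleton, adhesion and membranes, 6 were positive and 3 KO-above. The start of Itm2b ranked 65166, 76971 and 65738 in WT and 36245, 39236 and 58174 in KO (0.66 ± 0.27). Fndc3a and Pcdh8, a protocadherin gene, were the others. Lcp1, which encodes the actin-bundling protein of leukocytes, had a difference of 1.07 ± 0.44 with overlapping groups (29595, 34963 and 32623 against 9617, 12576 and 30125). Lcp1 is in the leukocyte marker list. Of its other genes, Csf1r ranked 42304, 32040 and 24732 in WT and 56453, 43329 and 47948 in KO, and Cd68 ranked 27537, 39873 and 25576 against 32214, 48914 and 21614, while Ptprc, Cd3e, Adgre1 and Itgam had no interval. The part of leukocytes in this value was not tested. Tpt1, a translationally controlled protein, was KO-above with ranks of 25952, 28625 and 23888 in WT and 9580, 18507 and 19839 in KO. At 6 of the 9 KO-above members KO replicate 3 ranked lowest of the KO libraries, as in Tsc22d1, Itm2b and Tpt1.

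**Figure D5:**
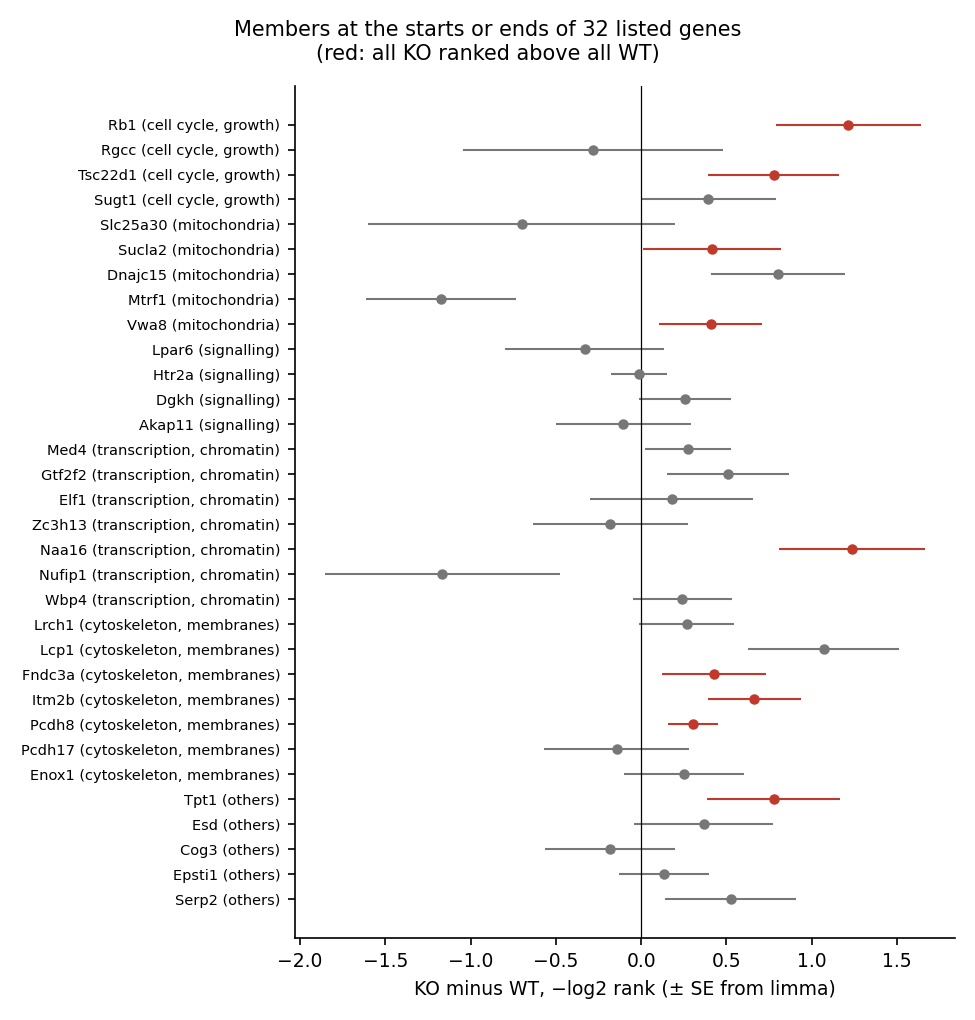
KO minus WT difference in −log2 rank (points, with bars for the SE from limma) at the start site or gene end of 32 listed genes, by role. The 9 red points, all positive, are KO-above members; none of the 32 was called, and the values run from −1.17 in Mtrf1 to 1.24 in Naa16.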

How the data were processed

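The files were peak lists, 1 per library, deposited by the authors in narrowPeak format holding per peak the fold over local background, which is a ratio, the −log10 of p and of q, where its summit lies, and a display score that was not used. Per the submitters' processing notes, mm10 was the build and DiffBind one of the tools. The file names give a p threshold of 0.01; aligner and peak caller: not given in the sources used here.

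Intervals with equal coordinates were collapsed, and the 100000 of highest fold in each list were kept and merged where they shared at least 1 bp. Regions with an interval in at least 3 libraries were compared on −log2 rank with limma 3.58.1 (R 4.3.3; moderated variance with trend, Benjamini-Hochberg over all 100565 regions, threshold 0.05), without a block. Libraries numbered 2 and those numbered 3 deviated together across genotypes (r = 0.558 and 0.401 over all regions), a pairing read from these data and the numbers in the titles. Those numbered 1 did so less (r = 0.105), below the 0.318 of WT replicate 1 with KO replicate 3. Pairs of unlike number ran from −0.513 to 0.318. The fit with a replicate block is given in the closing section. Summit coverage k and background λ were recovered from fold = (k + 1) / (λ + 1) and the Poisson tail of p, with 100% of values whole within 0.01 in −log10 p; this form is inferred from the values. Start sites (500 bp either side) came from RefSeq's promoter table and gene spans from RefSeq, GRCm38.p6, without exons or UTRs. The remaining work was done in Python 3.11.15 (pandas 2.3.3, NumPy 2.4.6, SciPy 1.17.1, matplotlib 3.10.9); the merging was tested on simulated data against bedtools 2.31.1. The rule for named members took all limma calls, the 6 largest separated differences per direction, the members absent from all lists of 1 genotype, those in Lrch1 and within 50 kb of Slc25a30, and the best-ranked member at the ends of each listed gene, 77 in all; others named in the text were chosen after their values were seen. The members and gene lists were chosen with earlier results of these data known.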

Additional observations from a re-analysis of the deposited data

How the results depend on the processing

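An absent interval means only that no summit passed the caller's threshold, and does not by itself show closed chromatin. The part of depth in absent intervals was not tested. The SD of the difference was larger in the stretch than on the rest of the chromosome under every alternative run (0.685 against 0.517 when ranked by −log10 p; linear ranks are on another scale, 22.8 against 17.0). The replicate block gave 3 higher and 3 lower calls (16 and 16 over all regions) and made the member nearer Diaph3 a call (adjusted p = 0.0455, limma); it changed no other named call. Calls higher in KO went from 3 to 1 with lists of 50000, and to 0 with no filter on libraries or an interval in all 6 required. Without single libraries they were 0 to 3, with 3 when KO replicate 3 was left out (background 0.886%). Calls lower in KO went from 2 to 0, 0 and 0 under those settings, to 4 with lists as long as the shortest (149153), and to 1 with edges at 73 and 86 Mb. Without single libraries they were 0 to 13, with 13 when KO replicate 3 was left out (background 1.67%). Fewer members were compared with lists of 50000 (202) and with all 6 libraries required (250). KO-above members numbered 31 (background 11.05%) and 38 (background 11.74%) there, and WT-above members 24 (background 7.51%) and 27 (background 6.64%). Without single libraries, KO-above members ran from 48 of 349 without KO replicate 1 (background 13.06%) to 93 of 346 without KO replicate 3 (background 22.75%). WT-above members ran from 45 of 353 without WT replicate 3 (background 10.06%) to 104 of 346 without KO replicate 3 (background 22.14%). The median difference went from 0.0152 to −0.0421 when ranked by −log10 p and to between −0.0617 and 0.0827 without single libraries. Small differences that had not passed their exact test turned: stretch minus rest in fold (0.137) became −0.142 with lists as long as the shortest and −0.148 to 0.231 without single libraries (−0.148 without WT replicate 2); in width (2.92 bp) −1.25 bp with lists of 50000 and −2.08 bp with the shortest; and in the percentage with several summits (−0.211) 0.365 with edges at 73 and 86 Mb and −0.459 to 0.0547 without single libraries (0.0547 without WT replicate 1). The cause was not tested. Members present in 1 genotype only have no value when all 6 libraries are required or when a library of that genotype is left out. Linear ranks gave no median difference, and the block no separation counts.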
